A study of Homo sapiens with 6 samples.

Results

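The EGF receptor (ERBB) family and its ligands were followed as 10 genes, picked by symbol from the 44591 genes listed for each library. They comprised the receptors EGFR, ERBB2, ERBB3 and ERBB4 and the ligands AREG, EREG, HBEGF, TGFA, NRG1 and BTC, and each was matched to 1 row in every library. PolyA-selected RNA was sequenced from A2780, a human ovarian cancer cell line that the labels give as wild type. The control group (untreated) held 3 libraries of A2780 cells, labelled 48 h, grown in DMEM with 10% fetal bovine serum. The other group held 3 libraries of the same line kept for 48 h in that medium with recombinant CRMP2 of human sequence (r-CRMP2) added at 40 ng/ml. CRMP2, the product of DPYSL2, is a microtubule-binding protein. A single line, dose and time were covered, and no control protein was among the libraries. The labels do not say whether replicates were separate cultures, so p-values measure only the spread between these libraries.

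As background, ligands of this family are made as membrane-anchored precursors, and metalloproteases such as ADAM17 release most of them from the cell surface. Binding of a ligand lets receptors pair, and the paired kinases phosphorylate each other's tails, which feed the RAS-ERK and PI3K-AKT pathways. EGFR binds the EGF-type ligands, ERBB3 and ERBB4 bind neuregulins, ERBB2 has no known ligand of its own and serves as the favoured partner, and ERBB3 has little kinase activity. ERBB2 is amplified in some ovarian and breast carcinomas.

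The libraries held 21888530 to 25711353 counts. The third r-CRMP2 library listed 22438 genes with a count, against 25152 to 26302 in the other 5, and 2125 genes with a single count against 3396 to 3627. Among markers, 8 of 11 epithelial and ovarian carcinoma genes were over 1 TPM (a level per length, scaled within each library), with a summed TPM of 3611 to 3762 in untreated and 3176 to 3423 in r-CRMP2 libraries. KRT8 and KRT18 gave most of it, whereas CDH1 had 0 to 5 counts and WT1 0 to 3 counts. The calls of single genes did not follow the sum. Of the 8 markers of this list tested, 3 were higher by adjusted p (KRT18, MSLN and CLDN4) and 1 was lower (MUC16). The other 4, with KRT8 among them, were neither (edgeR). Of 10 fibroblast markers, 9 were over 1 TPM, with a summed TPM of 263 to 301 in untreated and 191 to 204 in r-CRMP2 libraries. The sum was mostly COL1A1, and of the 9 fibroblast markers tested 2 were lower by adjusted p (COL1A1 and PDGFRB), 4 were higher (COL1A2, LUM, PDGFRA and THY1) and 3 were neither (edgeR). The mesenchymal genes VIM and CDH2, which some carcinoma lines express, summed to 1630 to 1694 TPM in untreated and 2352 to 2354 TPM in r-CRMP2 libraries, and both were higher by adjusted p. Endothelial markers summed to 3.61 to 3.94 and 0.649 to 1.08 TPM, and leukocyte markers to 2.95 to 3.40 and 1.83 to 2.37 TPM, in the same order. The part of these markers in the results was not tested, and in bulk RNA fewer cells of a type and less RNA per cell cannot be told apart.

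The bases before the starts of AREG and TGFA are shown because these ligand members rose. Those of EREG and EPGN are shown as neighbours of AREG on chromosome 4, of which EPGN, a family ligand that is no member, fell and EREG did not pass the test. RefSeq windows (GRCh38.p14) were used for 8 of the 10 members, with ERBB3 and NRG1 left out. TGFA had 2, of which the first listed is printed. Each line gives the 250 bases before the start, on the strand of the gene, with motif matches in capitals.
TGFA: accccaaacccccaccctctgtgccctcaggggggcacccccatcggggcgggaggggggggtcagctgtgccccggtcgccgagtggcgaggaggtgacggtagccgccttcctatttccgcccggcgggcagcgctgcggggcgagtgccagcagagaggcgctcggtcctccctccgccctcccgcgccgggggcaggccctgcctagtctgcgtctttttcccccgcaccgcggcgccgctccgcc
EPGN: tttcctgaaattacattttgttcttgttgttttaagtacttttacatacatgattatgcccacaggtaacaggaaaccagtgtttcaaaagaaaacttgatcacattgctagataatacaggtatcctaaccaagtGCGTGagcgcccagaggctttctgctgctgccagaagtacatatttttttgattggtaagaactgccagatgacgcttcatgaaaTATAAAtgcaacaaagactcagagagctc
EREG: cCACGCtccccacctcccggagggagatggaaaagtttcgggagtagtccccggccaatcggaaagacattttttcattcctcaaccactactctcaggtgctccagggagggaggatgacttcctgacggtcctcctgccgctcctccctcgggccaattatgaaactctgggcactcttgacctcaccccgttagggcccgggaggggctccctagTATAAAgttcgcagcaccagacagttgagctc
AREG: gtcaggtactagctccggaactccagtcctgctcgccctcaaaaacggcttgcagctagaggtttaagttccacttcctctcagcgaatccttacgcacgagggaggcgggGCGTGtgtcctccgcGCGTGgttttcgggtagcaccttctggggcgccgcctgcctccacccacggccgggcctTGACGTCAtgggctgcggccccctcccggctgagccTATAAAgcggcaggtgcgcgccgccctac
They lie at chr2:70553827-70554076 on the minus strand for TGFA, and on the plus strand at chr4:74308220-74308469 for EPGN, chr4:74364895-74365144 for EREG and chr4:74444886-74445135 for AREG. The motifs searched on both strands were the hypoxia response element cores ACGTG and GCGTG, the AP-1 site TGANTCA, the cyclic AMP response element TGACGTCA, the EGR site GCGTGGGCG, which contains GCGTG, and the TATA box TATAAA. With the base before the start as -1, AREG held GCGTG at -139 to -135 and at -124 to -120, TGACGTCA at -65 to -58 and TATAAA at -29 to -24. EPGN held GCGTG at -114 to -110 and TATAAA at -29 to -24. EREG held TATAAA at -32 to -27 and, on the opposite strand, GCGTG at -249 to -245, printed there as its reverse complement. The printed TGFA window held none of these letters, and the second window held 1 GCGTG. Over all 35116 windows of this length, TATAAA occurred in 10.7%, GCGTG in 32.2%, ACGTG in 18.5%, TGANTCA in 6.57%, TGACGTCA in 1.65% and GCGTGGGCG in 0.7205%. A match is a description of letters and not a binding site.

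Of the 10 members, 8 passed the filter on low counts. ERBB3 fell and AREG rose past both thresholds, an adjusted p under 0.05 over all 16222 genes tested and a log2 fold change past 1, in edgeR's quasi-likelihood test. That is 1 member lower, beside 8.86% of all genes tested, and 1 higher, beside 5.12%. By adjusted p alone, EGFR, AREG and TGFA rose and ERBB2 and ERBB3 fell, which is 3 higher and 2 lower members beside 28.2% and 30.1% of all genes. In 3 members (AREG, EREG and TGFA) every r-CRMP2 library lay above every untreated one in CPM (counts scaled to the TMM-adjusted size of each library), beside 30.9% of genes tested, and in 2 (ERBB2 and ERBB3) every one lay below, beside 33.3%. The median log2 fold change was 0.27 over the 8 members and -0.026 over all genes tested. The TMM factors were 1.10 to 1.12 in untreated and 0.878 to 0.922 in r-CRMP2 libraries. With scaling by library size alone, the median of all genes moved to -0.34, no member was past both thresholds on the higher side, and ERBB3 remained the 1 member past both on the lower side. Without the third r-CRMP2 library, the log2 fold changes were -1.40 for ERBB3, -0.49 for ERBB2, 1.23 for AREG and 0.90 for TGFA, with adjusted p between 7.11e-05 and 0.00145 (edgeR).

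**Figure D1:**
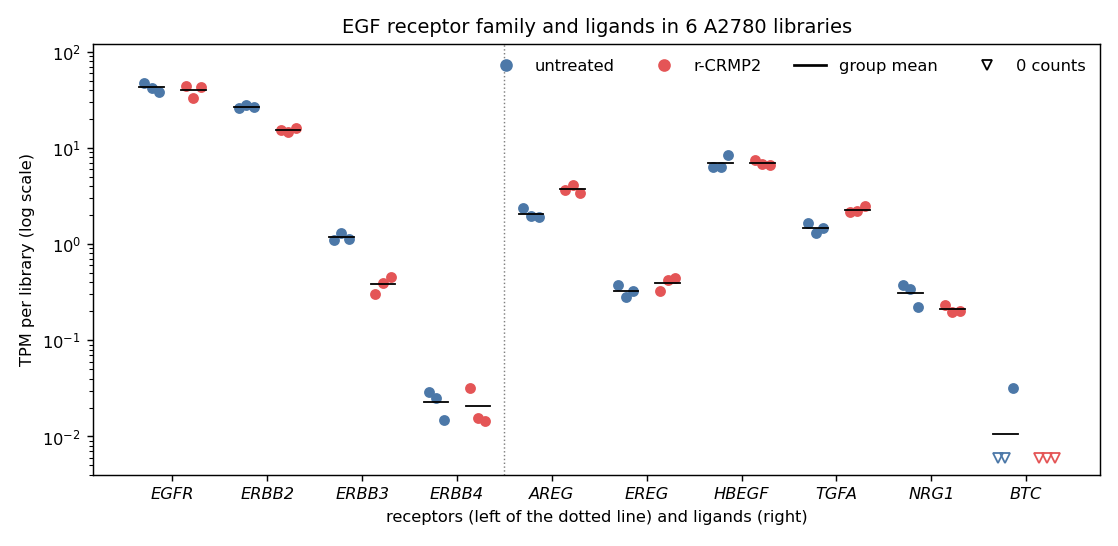
Levels of the members in each library, in TPM on a log axis, for the 4 receptors and the 6 ligands. Points are single libraries, untreated and r-CRMP2, horizontal bars are group means, and open triangles mark 0 counts. EGFR sits highest among the receptors and HBEGF among the 6 ligands in every library, and BTC is at 0 in 5 of the 6.

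Among the receptors, ERBB3 changed most. ERBB3 (chr12:56473809-56497291, hg19), the receptor with little kinase activity that binds neuregulins, had 79, 80 and 78 counts in the untreated and 20, 26 and 33 in the r-CRMP2 libraries. Its CPM was 2.84, 3.26 and 2.85 without and 0.936, 1.31 and 1.44 with r-CRMP2. All r-CRMP2 libraries lay below all untreated ones. Its mean CPM was 2.98 ± 0.239 and 1.23 ± 0.261 (SD, n = 3 each), 2.41-fold lower, with a log2 fold change of -1.27 (SE 0.19) and an adjusted p of 0.000143 by edgeR's quasi-likelihood test.

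ERBB2 (chr17:37844337-37884915), the receptor with no ligand of its own, fell by less. Its CPM was 58.8, 62.5 and 60.0 in untreated and 41.9, 43.8 and 45.2 in r-CRMP2 libraries, again without overlap. The mean went from 60.4 ± 1.86 to 43.7 ± 1.65 CPM (SD, n = 3 each), 1.38-fold lower, with a log2 fold change of -0.47 (SE 0.04) and an adjusted p of 7.52e-06 (edgeR). The antisense gene MIEN1 overlaps its end by 163 bases. MIEN1 had 449 to 636 counts and a log2 fold change of -0.14 (adjusted p = 0.203, edgeR).

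EGFR (chr7:55086714-55275773), the receptor for EGF, AREG, TGFA, EREG, HBEGF and BTC, was the most abundant receptor. It had 4351, 3274 and 3393 counts in untreated and 3678, 2818 and 3965 in r-CRMP2 libraries. In CPM these were 156, 133 and 124 against 172, 142 and 173, so that the groups overlapped. The log2 fold change was 0.24 (SE 0.13, adjusted p = 0.0228, edgeR) with TMM factors and -0.072 (adjusted p = 0.481) with library size alone, and its direction therefore depended on the scaling. The adjusted p was also over the threshold, between 0.0615 and 0.140, without untreated replicate 2 or 3 or r-CRMP2 replicate 1 or 3 in turn. In TPM the mean was 42.4 ± 4.58 in untreated and 40.0 ± 5.91 in r-CRMP2 libraries (SD, n = 3 each). The antisense gene EGFR-AS1 lies within it, with 8 to 26 counts, and the strand setting of the counting is not given in the sources used here.

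ERBB4 (chr2:212240442-213403352), the other neuregulin receptor, had 4, 3 and 2 counts in untreated and 4, 2 and 2 in r-CRMP2 libraries. It was too low to be tested, and a difference was not detectable at this depth. Per length, the order of the receptors was EGFR, ERBB2, ERBB3 and ERBB4 in each of the 6 libraries. The mean TPM of ERBB2 was 26.8 ± 1.20 in untreated and 15.4 ± 0.722 in r-CRMP2 libraries, and that of ERBB3 was 1.17 ± 0.108 and 0.384 ± 0.0749 (SD, n = 3 each).

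**Figure D2:**
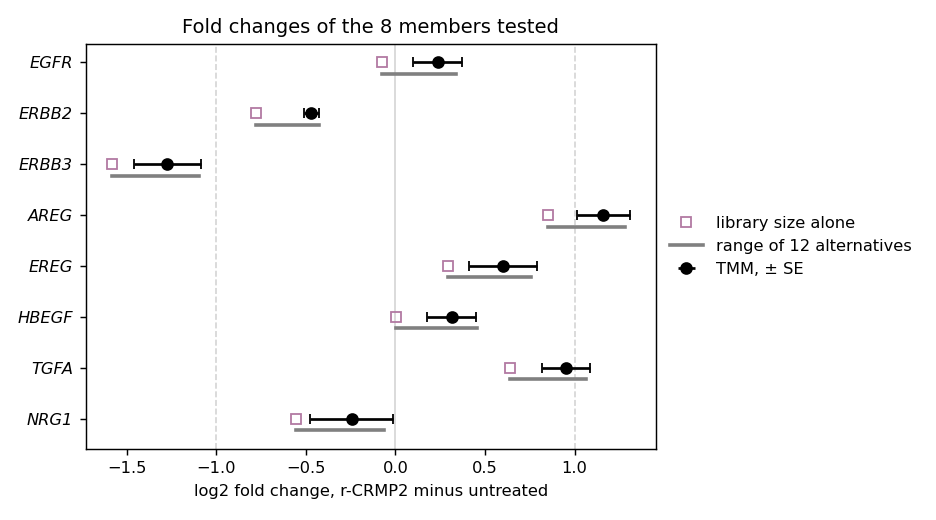
Log2 fold change of each tested member, r-CRMP2 against untreated, with its SE as the error bar. Grey lines span the 12 alternatives, squares are library size alone, dashed lines mark 1 either way, and each square lies left of its point.

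Among the ligands, AREG and TGFA rose. AREG (amphiregulin, chr4:75310815-75320726) had 35, 25 and 27 counts in untreated and 49, 56 and 51 in r-CRMP2 libraries. These were 1.26, 1.02 and 0.987 CPM against 2.29, 2.83 and 2.22 CPM, with every r-CRMP2 library above every untreated one. The mean rose from 1.09 ± 0.148 to 2.45 ± 0.333 CPM (SD, n = 3 each), 2.23-fold, with a log2 fold change of 1.16 (SE 0.15) and an adjusted p of 0.000616 (edgeR). With library size alone it was 0.85 (adjusted p = 0.00632), under the fold threshold. The hg19 assembly holds a near-identical copy of AREG that was not analysed here, so that its level is uncertain where reads map to both.

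TGFA (chr2:70674412-70781147), transforming growth factor alpha, had 92, 61 and 78 counts without and 109, 112 and 138 with r-CRMP2. Its CPM was 3.31, 2.49 and 2.85 in untreated and 5.10, 5.66 and 6.01 in r-CRMP2 libraries, again without overlap. The mean rose 1.93-fold, from 2.88 ± 0.412 to 5.59 ± 0.457 CPM (SD, n = 3 each). The log2 fold change of 0.95 (SE 0.13, adjusted p = 8.72e-05, edgeR) was just under the threshold of 1. It passed that threshold when untreated replicate 1 (1.06) or r-CRMP2 replicate 1 (1.03) was left out, and library size alone gave 0.64.

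The other ligands did not pass the test with TMM factors. HBEGF (heparin-binding EGF-like growth factor, chr5:139712428-139726188) had 174, 148 and 220 counts in untreated and 187, 172 and 181 in r-CRMP2 libraries. Its CPM was 6.78 ± 1.10 and 8.44 ± 0.488 (SD, n = 3 each), and the groups overlapped through untreated replicate 3 at 8.04 CPM. Its log2 fold change was 0.31 (SE 0.14, adjusted p = 0.0593, edgeR), and 0.0033 with library size alone (adjusted p = 0.985). It passed the adjusted p with RLE size factors (0.33, adjusted p = 0.0434) and without untreated replicate 3 (0.46, adjusted p = 0.0138).

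EREG (epiregulin, chr4:75230860-75254477) had 20, 13 and 17 counts in untreated and 16, 21 and 24 in r-CRMP2 libraries. The CPM values of 0.719, 0.530 and 0.621 lay below those of 0.749, 1.06 and 1.04, but the log2 fold change of 0.60 (SE 0.19) had an adjusted p of 0.153 (edgeR), and in TPM the groups overlapped. NRG1 (neuregulin 1, chr8:31496738-32625475), a ligand of ERBB3 and ERBB4, had 48, 37 and 27 counts in untreated and 27, 23 and 26 in r-CRMP2 libraries. Its log2 fold change was -0.24 (SE 0.23, adjusted p = 0.504, edgeR), and it went from -0.065 when untreated replicate 1 was left out to -0.45 when untreated replicate 3 was. BTC (betacellulin, chr4:75669969-75719896) had 1 count in untreated replicate 3 and 0 in the other 5 libraries, where a count of 0 allows up to 0.108 to 0.152 CPM.

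In TPM, HBEGF was the highest of the 6 ligands at 7.00 ± 1.16 in untreated and 6.96 ± 0.496 in r-CRMP2 libraries. AREG followed at 2.08 ± 0.253 and 3.72 ± 0.348, then TGFA at 1.47 ± 0.188 and 2.28 ± 0.170 (SD, n = 3 each). EREG and NRG1 came next, at 0.328 ± 0.0450 and 0.311 ± 0.0817 in untreated libraries, where their ranges overlapped, and at 0.398 ± 0.0619 and 0.210 ± 0.0199 in r-CRMP2 libraries, where they did not.

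The make-up of the receptors and ligands within a library does not depend on the scaling between libraries. EGFR held 63.9, 58.6 and 57.9% of the summed receptor TPM in untreated and 73.6, 68.7 and 72.0% in r-CRMP2 libraries. The share of ERBB2 was 38.2 ± 3.12% and 27.8 ± 2.36%, and that of ERBB3 was 1.67 ± 0.176% and 0.696 ± 0.161% (SD, n = 3 each). Within the 6 ligands, AREG held 18.7 ± 2.97% and 27.4 ± 2.15%, TGFA 13.2 ± 1.58% and 16.8 ± 1.80%, and HBEGF 62.3 ± 5.43% and 51.3 ± 2.48%. NRG1 held 2.83 ± 0.902% and 1.55 ± 0.126%. Each of these shares was without overlap between groups and gave p = 0.1 in an exact two-sided permutation test, the smallest that 3 against 3 libraries allow (adjusted p = 0.162 over 21 shares). The shares of ERBB4, EREG and BTC overlapped between groups. From counts not divided by length, the share of HBEGF overlapped between groups (p = 0.2, exact two-sided permutation test). Unlike the shares, a summed TPM does depend on the scaling of each library to a common total. The summed receptor TPM was 70.4 ± 4.01 and 55.9 ± 6.51, and that of the 6 ligands was 11.2 ± 1.05 and 13.6 ± 0.416 (SD, n = 3 each).

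**Figure D3:**
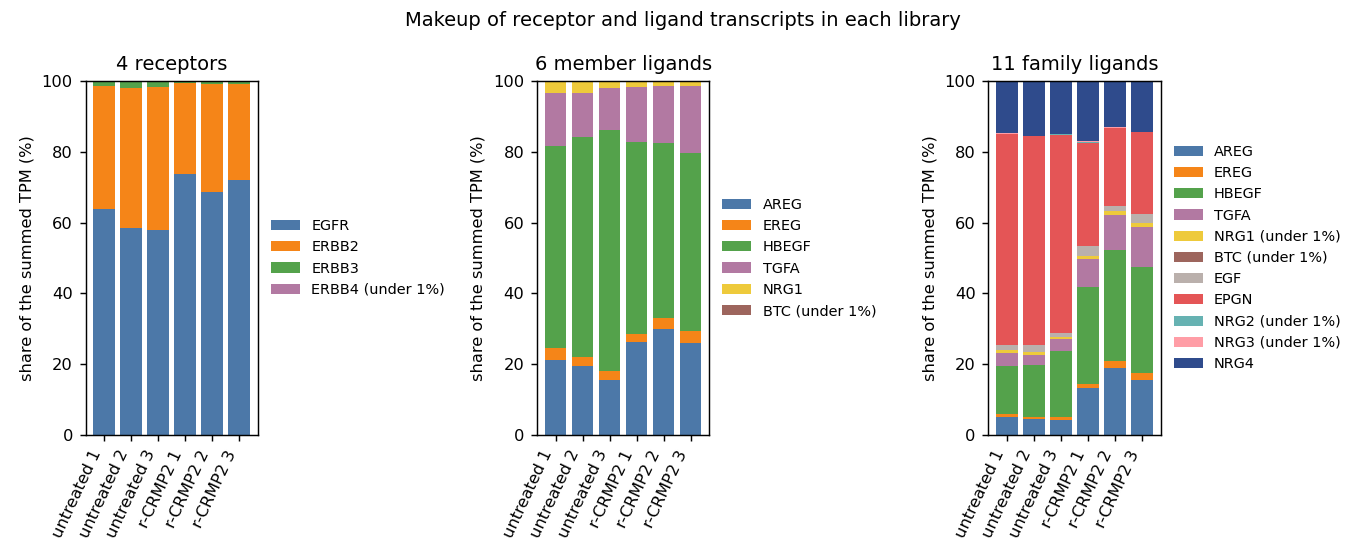
Share of the summed TPM held by each gene in each library, in percent, for the 4 receptors, the 6 member ligands and all 11 family ligands. Each stacked bar is 1 library; EPGN holds most of the bar of 11 ligands in the untreated libraries and less in the r-CRMP2 libraries.

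The other family ligands were EGF, EPGN, NRG2, NRG3 and NRG4. EPGN (epigen), an EGFR ligand, had 927, 739 and 806 counts in untreated and 243, 148 and 173 in r-CRMP2 libraries. It fell 3.52-fold, from 31.0 ± 2.07 to 8.80 ± 2.23 CPM (SD, n = 3 each), with a log2 fold change of -1.82 (SE 0.21) and an adjusted p of 4.72e-10 (edgeR). NRG4, an ERBB4 ligand, fell by less, with a log2 fold change of -0.61 (adjusted p = 0.00432, edgeR). EGF had a log2 fold change of 0.10 (adjusted p = 0.804, edgeR), and NRG2 and NRG3 were at 0 to 3 counts and were not tested. EPGN held 58.2 ± 1.87% of the TPM of all 11 ligands in untreated and 24.8 ± 3.73% in r-CRMP2 libraries. With EPGN in the sum, the share of HBEGF was 15.7 ± 2.73% and 29.6 ± 2.01%, so its direction was opposite to that within the 6 ligands. The summed TPM of the 11 ligands, which depends on the scaling between libraries, was 44.8 ± 1.53 and 23.7 ± 3.25.

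Some family genes lie close to each other or to an adaptor gene, and these pairs were set out after their values were seen. On chromosome 4, EPGN, EREG, AREG and BTC lie in this order from 75174187 to 75719896 (hg19), a span of 545.709 kb with 4 listed protein-coding genes. EPGN fell and AREG rose, and the ratio of AREG to EPGN in TPM was 0.0794 ± 0.00537 in untreated and 0.661 ± 0.200 in r-CRMP2 libraries (SD, n = 3 each). On chromosome 17, ERBB2, MIEN1 and GRB7 lie from 37844337 to 37903538, a span of 59.201 kb. GRB7, an adaptor that binds activated receptors and is often co-amplified with ERBB2, had 758, 690 and 715 counts in untreated and 1333, 1552 and 1663 in r-CRMP2 libraries. It rose 2.62-fold in CPM while ERBB2 fell, with a log2 fold change of 1.39 (SE 0.10, adjusted p = 6.8e-11, edgeR). The ratio of GRB7 to ERBB2 in TPM was 0.912 ± 0.0283 and 3.30 ± 0.312. Both ratios had p = 0.1 in an exact two-sided permutation test, and 0.1 after adjustment over the 10 ratios computed. Their genes were already seen to move in opposite directions, so these tests add no support of their own.

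**Figure D4:**
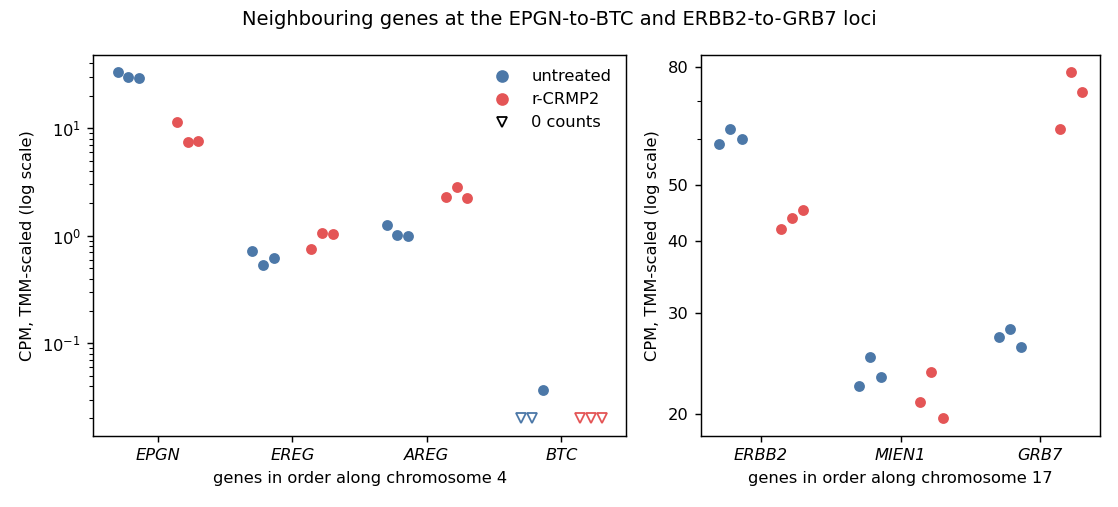
CPM (TMM-scaled, log axes) of neighbouring genes in each library, for EPGN, EREG, AREG and BTC on chromosome 4 and for ERBB2, MIEN1 and GRB7 on chromosome 17. Points are single libraries and open triangles mark 0 counts. The r-CRMP2 libraries lie below untreated ones for EPGN and ERBB2 and above them for EREG, AREG and GRB7.

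Inhibitors and turnover genes of the receptors were led by ERRFI1 (MIG6), which binds the EGFR kinase and blocks it. ERRFI1 had 2842, 2277 and 2345 counts in untreated and 14279, 15006 and 18108 in r-CRMP2 libraries. It rose 7.89-fold, from 93.6 ± 8.26 to 738 ± 62.5 CPM (SD, n = 3 each), with a log2 fold change of 2.98 (SE 0.10) and an adjusted p of 2.92e-15 (edgeR). The ratio of ERRFI1 to EGFR in TPM was 1.72 ± 0.0589 and 11.6 ± 1.83, with p = 0.1 in an exact two-sided permutation test. This ratio restates the rise of ERRFI1, so its test adds no support of its own. The shares of all genes tested that were higher and lower by adjusted p, 28.2% and 30.1%, stand beside each TMM count of this and the other lists. They do not apply to the counts with library size alone, for which no such shares are given. That scaling moved the median of all genes to -0.34, so more lower genes in a list are not particular to it. Of the 16 genes in this list, 7 were higher and 2 lower by adjusted p with TMM factors, whereas library size alone gave 2 higher and 8 lower. ERRFI1 was the 1 gene of the list past the fold threshold with TMM factors.

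Among adaptors and proximal effectors, 21 of 22 genes were tested, with 6 higher and 5 lower by adjusted p with TMM factors, whereas library size alone gave 5 and 13. CRKL, an SH2 and SH3 domain adaptor, rose 2.64-fold, from 97.5 ± 8.59 to 257 ± 13.8 CPM (SD, n = 3 each; log2 fold change 1.40, SE 0.08, adjusted p = 8.6e-12, edgeR). SHC4, a SHC-type adaptor, fell from 6.92 ± 1.23 to 3.44 ± 0.284 CPM (SD, n = 3 each). Its log2 fold change of -1.01 (adjusted p = 3.77e-05, edgeR) was just past the threshold, and the call was lost with RLE size factors, with DESeq2, and when untreated replicate 1 or r-CRMP2 replicate 1 or 2 was left out, with values between -0.99 and -0.86.

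The shedding and trafficking list showed 5 genes higher and 2 lower of 10, none past both thresholds, and library size alone gave 2 and 3. In it, named for their roles after the values were seen, ADAM17 had a log2 fold change of 0.29 (adjusted p = 0.00109, edgeR), or -0.023 with library size alone. RHBDF2 (iRhom2), which carries ADAM17 to the cell surface, fell with a log2 fold change of -0.86 (adjusted p = 1.09e-05, edgeR). RHBDF1 (iRhom1) went the other way, with 0.27 (adjusted p = 0.0046, edgeR), or -0.039 with library size alone. The remaining genes that passed with TMM factors were ADAM10, ADAM12 and ADAM15, higher, and FRMD8, lower. In the RAS-RAF-MEK-ERK cascade, 5 of 16 genes were higher and 3 lower, or 2 and 11 when scaled by library size. In the PI3K-AKT branch, 3 of 14 were higher and 6 lower, or 1 and 10 when scaled by library size. No gene of either pathway was past both thresholds with TMM factors.

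Genes induced by ERK and its feedback genes moved in both directions. Of 22 genes, 10 were higher and 6 lower by adjusted p, or 9 and 10 when scaled by library size, while 4 were past both thresholds each way, beside 5.12% higher and 8.86% lower of all genes tested. IER3 rose 8.42-fold, from 367 ± 34.4 to 3090 ± 542 CPM, and EGR1 fell from 109 ± 42.2 to 4.63 ± 1.84 CPM (SD, n = 3 each), with adjusted p of 6.73e-14 and 3.43e-11 (edgeR). EGR2 had 18, 22 and 31 counts in untreated and 3, 0 and 0 in r-CRMP2 libraries (adjusted p = 5.32e-05, edgeR). EGR3 had 27, 31 and 40 counts and 1, 1 and 7 counts in the same order (adjusted p = 4.54e-05, edgeR). The others past both thresholds were FOSL1, DUSP5 and JUN, higher with log2 fold changes of 2.57, 1.90 and 1.16, and CCND1, lower with -1.04. The call of JUN was lost with library size alone (0.84) and without untreated replicate 1 (0.88), and that of CCND1 without r-CRMP2 replicate 2 (-0.98). Over all 105 genes of these 7 lists, 102 were tested, 36 were higher and 26 lower by adjusted p, beside 28.2% and 30.1% of all genes tested, and their median log2 fold change was 0.05, beside -0.026 for all genes tested.

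**Figure D5:**
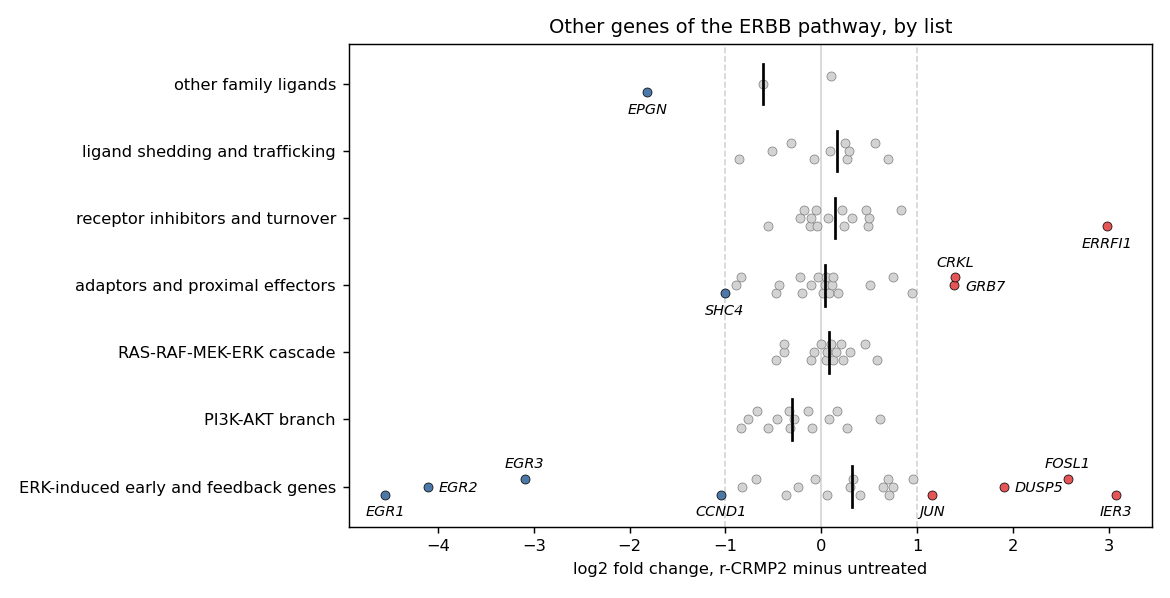
Log2 fold change of each tested gene of the pathway lists, r-CRMP2 against untreated. Coloured points pass both thresholds and are named, dashed lines mark a log2 fold change of 1 either way, and short vertical bars mark list medians, which run from -0.61 for the other family ligands to 0.32 for the genes induced by ERK.

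The pattern of ERBB3 over the 6 libraries was most like that of TTC16, MTA2 and CCR1, with Pearson's r of log2 CPM of 0.998, 0.997 and 0.997. The 6 libraries form 2 groups, and 2015 genes had r over 0.9 with ERBB3. EGFR, which differed little between groups, was most like ZRANB2, SPICE1 and KDM7A, with r of 0.993, 0.993 and 0.992, and 218 genes had r over 0.9 with it.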

How the data were processed

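RNA of 6 A2780 libraries was analysed, 3 untreated and 3 treated with r-CRMP2, grouped by their titles. Each library had 1 file. Per the labels, polyA RNA was enriched with oligo(dT), and the submitters' processing notes name FastQC, HISAT2, DESeq2 and hg19. The counting tool, its annotation and strand setting are not given in the sources used here. The authors deposited whole-number counts per gene, without normalization, and beside them TPM values, which divide by gene length and scale each library to a common total.

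Counts were tested with edgeR 4.0.16 (R 4.3.3, limma 3.58.1), after filterByExpr, with TMM factors and the quasi-likelihood test, and p-values were adjusted by Benjamini-Hochberg over all genes tested. SEs come from log2 CPM with a prior count of 2. Shares and ratios were taken from TPM and compared by exact permutation tests. Alternatives were RLE factors, library size alone, DESeq2 1.42.0, other filters, no fold threshold, the replicate number as a block and leaving out each library. The scripts were tested on simulated data. No library duplicated another. Floors cover counting error only, and SEs cover the spread between libraries.

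The members and lists were chosen with earlier results of these data known. Named were the 10 members and, of each list, the genes past both thresholds. A planned limit of the 4 largest per list was not applied to the ERK-induced genes, of which all past both were named. Likeness took the 3 genes with the highest r to the most changed member with a mean count of at least 50. It took the same for the member with the highest mean TPM. Protein sequences were not used here.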

Additional observations from a re-analysis of the deposited data

How the results depend on the processing

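With no fold threshold, 4574 genes were higher and 4875 lower, against 831 and 1437 with it; members were 3 and 2, the other family ligands 2 lower, shedding genes 5 higher and 2 lower, inhibitors 7 and 2, adaptors 6 and 5, the RAS-ERK cascade 5 and 3, the PI3K-AKT branch 3 and 6, and ERK-induced genes 10 higher. With library size alone, 489 genes were higher and 2553 lower (16.1% of calls higher, against 36.6% with TMM), 0 members were higher, and 1 shedding gene, 3 adaptors and 2 PI3K-AKT genes were lower; EGFR reversed to -0.072. With at least 10 counts in every library, 946 genes and 2 ERK-induced genes were lower. With RLE size factors and with DESeq2, 0 adaptors were lower. Leaving out each library in turn gave 1 to 2 members and 1 to 2 inhibitors higher and 0 to 1 adaptors lower. A replicate block in the fit left 819 genes higher and 1437 lower, 1 member each way, and 0 adaptors lower, since SHC4 was at -0.996; same-numbered libraries did not deviate together (correlations -0.021, 0.0038 and -0.025), so the numbers were not taken as pairs. Within the 11 ligands in place of 6, the r-CRMP2 minus untreated difference in share reversed for HBEGF, from -11.0 to 13.9 percentage points, and for NRG1, from -1.28 to 0.195, and moved to 0.991 for EREG and 6.48 for TGFA. From counts not divided by length, it moved to 4.59 for AREG, 7.54 for TGFA and -4.73 for NRG1. By definition, a share depends on which genes are summed and on whether counts are divided by length. The cause of the other differences between settings was not tested. ERBB3 stayed past both thresholds in 12 of 12 fits, with log2 fold changes from -1.58 to -1.10, and AREG in 11 of 12. ERBB4 and BTC were limited by depth, and AREG, EREG and NRG1 rest on under 60 counts a library.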
